A study of Mus musculus with 19 samples.

Results

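The genes described here are 29 heat shock protein, co-chaperone and heat shock factor genes of the mouse, out of 21031 protein-coding genes, and the question is where peaks of the protein SPEN lay near them. They were taken by name: the inducible and constitutive Hsp70 genes, the Hsp90 and Hsp110 genes, the mitochondrial chaperonins, small heat shock proteins, J-domain proteins, co-chaperones, 3 heat shock factors and the polyubiquitin gene Ubb. A peak belonged to a gene when the authors' deposited annotation assigned it to that gene, at up to 5 kb (near) or up to 50 kb from the gene's transcription start site (TSS). A total of 33 peaks met the wider limit over all 19 libraries. Of these, 16 were antibody-specific, meaning that no base of them was covered by a peak of the background libraries (IgG and 2 inputs), and 17 were at background.

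SPEN binds RNA and brings corepressors to chromatin. Its position on chromatin was measured by chromatin immunoprecipitation and sequencing (ChIP-seq) in cells of adult FVB/N male mice aged 10 to 16 weeks. Mixed testicular cells were precipitated with a rabbit antibody to the SPEN N-terminus (3 libraries: untreated at 32 °C, 38 °C for 15 min, and 38 °C for 30 min followed by 2 h of recovery) or to an internal stretch of the protein (9 libraries). The internal antibody covered untreated cells, and at each of 38 °C and 43 °C the states 15 min, 30 min, and 30 min followed by 2 h or 4 h of recovery at 32 °C. Cells enriched for spermatocytes (the labels give up to 80%) were precipitated with the internal antibody in 4 states (untreated, 43 °C for 30 min, and the same with 2 h or 4 h of recovery). The 3 background libraries were an IgG precipitation pooled over treatments and mixed inputs of testicular cells and of spermatocytes. Every condition had 1 library, made by pooling 5 to 6 precipitations of chromatin cut to 100 to 500 bp, so no value has a replicate error and no condition could be tested against another. Peak lists hold no expression values, so the labelled cell populations could not be checked against marker genes, and fewer cells with a bound site cannot be told apart from less binding per cell.

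The heat shock response raises chaperone synthesis when proteins unfold. Heat shock factors bind heat shock elements, inverted repeats of the block GAA, upstream of chaperone genes, and Hsp70, Hsp90 and J-domain proteins then help to refold or clear damaged proteins. The testis is kept below body temperature, its germ cells express chaperones of their own such as Hspa2 and Hspa4l, and heat harms spermatocytes in particular.

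The lists differed in ways that touch each count below. The untreated testicular list of the internal antibody held 27370 antibody-specific peaks. That of spermatocytes at 4 h of recovery held 8164, and the other 14 SPEN lists held 333 to 1442. The IgG and input lists held 476 to 1214 peaks that lay outside the other background lists, so antibody-specific is a label and does not by itself mean SPEN binding. Depth is unknown, since peak lists carry no read totals, and list length and treatment cannot be told apart. Folder names in the file headers set the N-terminal libraries apart from the rest, so antibody and folder cannot be told apart either.

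The upstream sequences of 5 genes are shown first. The near peak of Hspe1 covered a heat shock element at its edge. Other elements found had no peak on them. The near peaks of Hspa4 (score 143.9) and Hsf5 (133.4) scored higher than that of Hspe1 (132.3) and covered no element found. Each sequence is the 250 bases before a RefSeq start site in GRCm38.p6, the assembly that mm10 corresponds to, written 5′ to 3′ on the gene's strand. Capitals mark matches to GAANNTTC or TTCNNGAA, where 2 inverted blocks meet, and a sequence without capitals has no match. Hspe1 (chr1:55087898-55088147, plus strand) is shown for the element under its peak, and Dnajb6 (chr5:29735648-29735897, plus strand) for an element beside a peak. Hsf2 (chr10:57486135-57486384, plus strand) has a peak on this window and no element. Hspa1b (chr17:34959239-34959488, minus strand) and Hspa1a (chr17:34972157-34972406, minus strand) show how alike the inducible Hsp70 copies are.
Hspe1: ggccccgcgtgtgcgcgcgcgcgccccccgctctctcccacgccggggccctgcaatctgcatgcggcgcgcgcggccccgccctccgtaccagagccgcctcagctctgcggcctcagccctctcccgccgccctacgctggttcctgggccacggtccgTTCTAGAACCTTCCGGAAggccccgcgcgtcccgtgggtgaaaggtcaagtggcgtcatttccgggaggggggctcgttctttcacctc
Dnajb6: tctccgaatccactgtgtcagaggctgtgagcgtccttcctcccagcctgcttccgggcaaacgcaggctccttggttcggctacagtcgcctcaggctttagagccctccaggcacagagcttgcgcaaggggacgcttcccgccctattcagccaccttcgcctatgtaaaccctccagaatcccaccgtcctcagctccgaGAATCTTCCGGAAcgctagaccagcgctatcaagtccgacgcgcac
Hsf2: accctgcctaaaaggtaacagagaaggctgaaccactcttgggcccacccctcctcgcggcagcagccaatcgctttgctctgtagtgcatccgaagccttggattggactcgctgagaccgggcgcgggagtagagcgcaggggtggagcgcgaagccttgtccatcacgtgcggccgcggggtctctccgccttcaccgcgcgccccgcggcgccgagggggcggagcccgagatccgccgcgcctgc
Hspa1b: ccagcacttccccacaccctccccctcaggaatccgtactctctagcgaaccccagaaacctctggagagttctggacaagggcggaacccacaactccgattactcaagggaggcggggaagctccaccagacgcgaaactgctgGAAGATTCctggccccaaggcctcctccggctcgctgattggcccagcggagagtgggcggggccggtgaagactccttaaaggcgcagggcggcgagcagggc
Hspa1a: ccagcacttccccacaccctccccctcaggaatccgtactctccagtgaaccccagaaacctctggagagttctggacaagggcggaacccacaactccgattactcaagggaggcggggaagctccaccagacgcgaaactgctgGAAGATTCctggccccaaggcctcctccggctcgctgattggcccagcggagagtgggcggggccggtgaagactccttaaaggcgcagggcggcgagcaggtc

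Peaks near the heat shock genes were found in 1 library. With the internal antibody on untreated testicular cells, 8 of the 29 genes (27.6%, exact 95% interval 12.7 to 47.2%) had an antibody-specific peak within 5 kb: Hspa1b, Hspa4, Hspa5, Hsp90ab1, Hspe1, Dnajb1, Hsf2 and Hsf5. In the same list 20.2% of all protein-coding genes had one, a share inside the interval of the 29. None of the 29 had a near peak in any of the other 15 SPEN libraries or in the 3 background libraries. A count of 0 of 29 allows a share of up to 10.3% with 3 counts as the limit, and the exact interval, drawn in the plot of shares by library, reaches 11.9%. Intervals and limits cover counting error only.

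These 0 counts are read against the share of all genes with a near peak in the same list. With the internal antibody in testicular cells it was 0.162% after 15 min at 38 °C, 0.414% after 30 min, and 0.119% and 0.109% with 2 h and 4 h of recovery. At 43 °C the corresponding shares were 0.114%, 0.0999%, 0.152% and 0.114%. With the N-terminal antibody they were 0.0856% untreated, 0.124% after 15 min and 0.143% with 2 h of recovery. In spermatocytes they were 0.0999% untreated, 0.166% after heat and 0.0856% with 2 h of recovery. The IgG gave 0.105%, the testicular input 0.285% and the spermatocyte input 0.0999%. At each of these shares 29 genes would hold under 1. Spermatocytes with 4 h of recovery stood at 3.48%, at which 29 genes would hold 1.01. In the 14 shorter SPEN lists combined, 1.11% of all genes had a near peak and 5.12% one within 50 kb, and none of the 29 did.

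Within 50 kb the number was 12 of 29 in the untreated internal list (41.4%, interval 23.5 to 61.1%), against 37.9% of all genes. The 4 genes added were Bag3, Chordc1, Hspa8 and Ubb. Hsph1 was the 1 gene of the 29 with such a peak elsewhere, in spermatocytes at 4 h of recovery (3.45%, against 13.0% of all genes). Over all 16 SPEN libraries 8 genes had a near peak and 13 a peak within 50 kb, against 22.6% and 43.4% of all genes. Without the untreated internal library these counts were 0 and 1, against 4.26% and 15.8% of all genes. The other 16 genes had no peak assigned at any distance: Hspa1a, Hspa1l, Hspa2, Hspa4l, Hsp90aa1, Hspd1, Hspb1, Hspb8, Cryab, Dnaja1, Dnajb6, Serpinh1, Hsf1, Ahsa1, Fkbp4 and Stip1. The share of all genes without a peak at any distance is not given here, so these absences cannot be called particular to the 16.

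**Figure D1:**
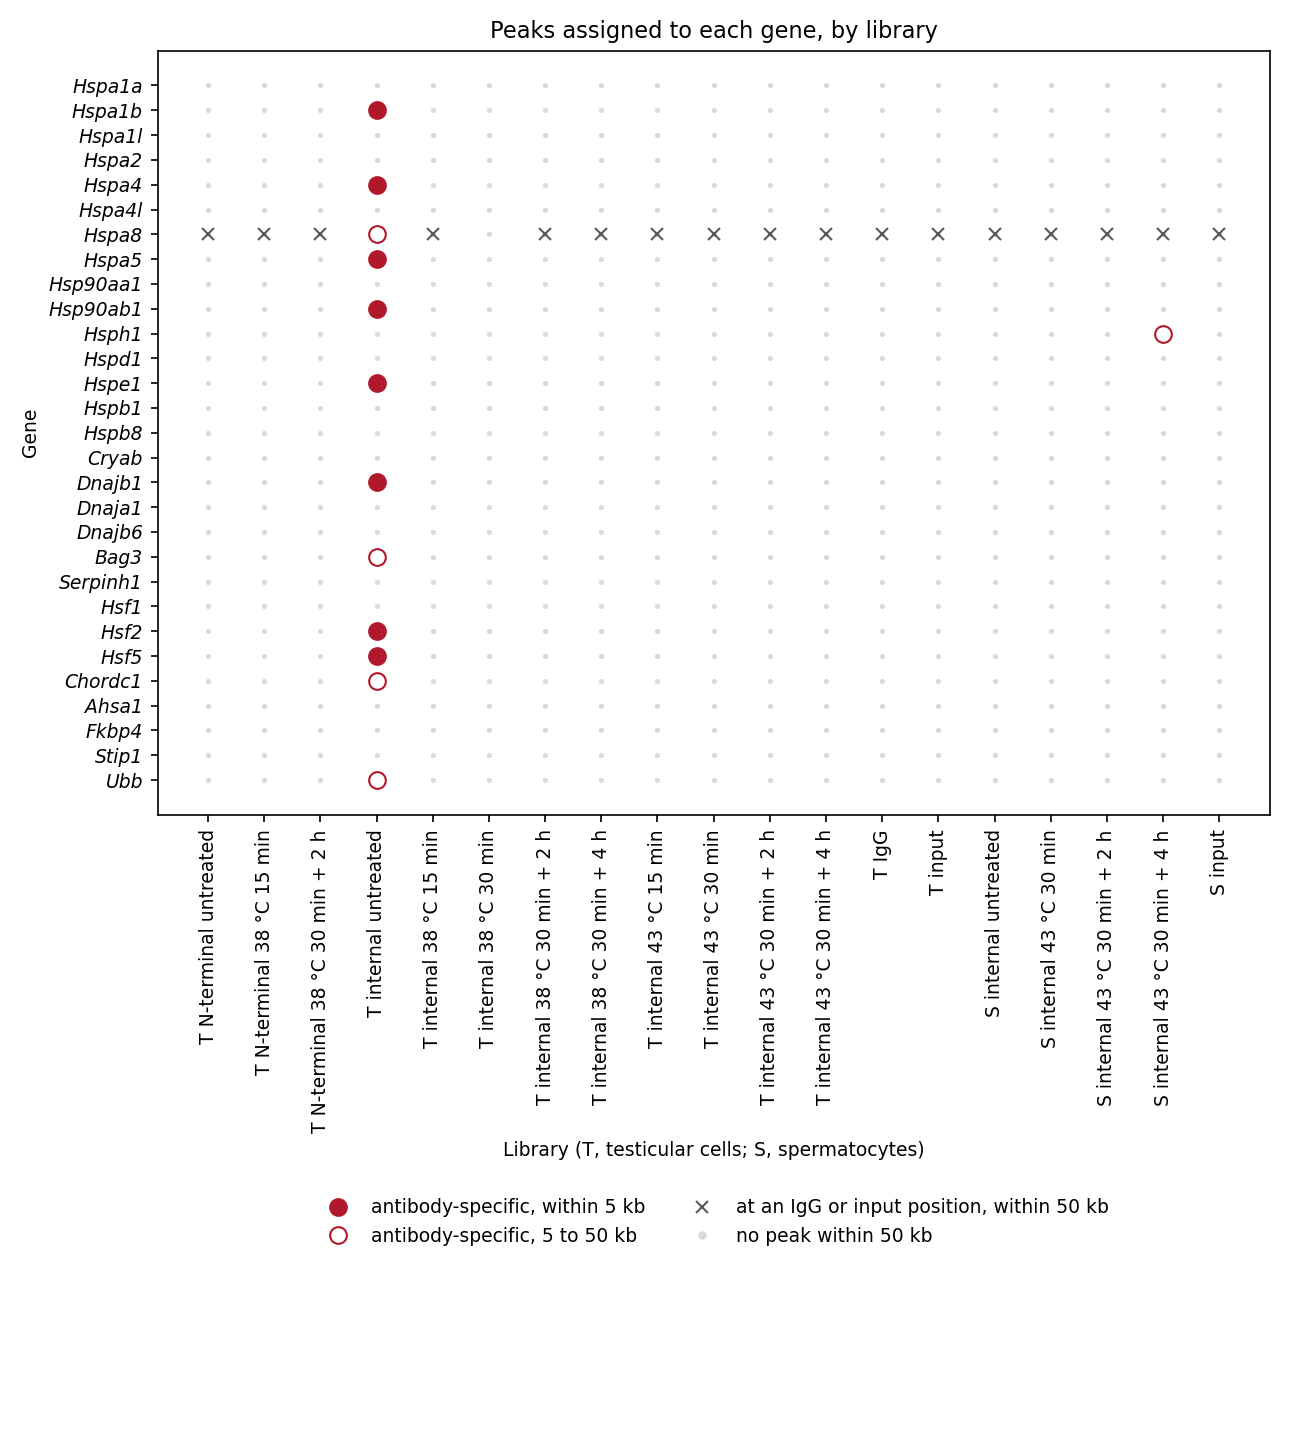
Peaks assigned to each of the 29 genes (vertical axis) in each of the 19 libraries (horizontal axis), by distance and by whether the position was also called in IgG or input. All 8 genes with a near antibody-specific peak are in the column of the untreated internal library, and the crosses in the line of Hspa8 are 1 background position called in 17 libraries.

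Among the Hsp70 genes, Hspa4, a nucleotide exchange factor of the Hsp110 type, had the highest antibody-specific score of the 29 genes. Its peak at chr11:53299797-53300284 scored 143.9, covered a CpG island in intron 1 of 18, and was centred 439 bp after the TSS. The score is the authors' peak caller value, used here only to rank peaks within a list, and 94.5% of the antibody-specific peaks of that list scored no higher. Hspa5, the Hsp70 of the endoplasmic reticulum, had a low peak in exon 1 of 8 (chr2:34772249-34772420, score 58.1, 244 bp after the TSS), at percentile 38.5 of its list.

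Hspa1b, a heat-inducible Hsp70 gene with a single exon, had a pair of peaks inside that exon and none on its promoter. They lay at chr17:34957942-34958205 (score 72.4, 1165 bp after the TSS) and at chr17:34957538-34957710 (score 65.3, 1614 bp after it). Its neighbour Hspa1a, which encodes a nearly identical protein, had no peak in any library. The 250 bases upstream of both genes, printed above, were the same at 247 positions (98.8%). They differed by T44C, C47T and G249T, with the Hspa1b base first and positions counted from 1 at the 5′ end of the window. How reads that match both copies were placed is not given in the sources used here, so which copy the exon peaks belong to is uncertain.

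Hspa8, the constitutive Hsp70, had no near peak. In the untreated internal list it had 1 antibody-specific peak at chr9:40782532-40782692 (score 56.2), 18661 bp upstream and in the 3′ UTR of the neighbouring gene Clmp (exon 7 of 7). Hspa2 and Hspa4l, the Hsp70 and Hsp110 genes known from male germ cells, had no assigned peak, nor did Hspa1l, a testis-expressed neighbour of Hspa1a. Hsph1, the inducible Hsp110 gene, had its only peak in spermatocytes at 4 h of recovery, in intron 12 of 17 (chr5:149621962-149622293, score 75.3, 14188 bp after the TSS, percentile 78.8 of that list). The spermatocyte libraries before recovery and at 2 h had no peak within 50 kb of Hsph1. In them few genes had an antibody-specific peak within 50 kb: 0.704% untreated, 0.670% after heat and 0.514% with 2 h of recovery. At 4 h of recovery the share of all genes was 13.0%.

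Of the Hsp90 genes, the constitutive Hsp90ab1 had a near peak and the inducible Hsp90aa1 none at any distance. The Hsp90ab1 peak at chr17:45572941-45573340 scored 67.9, covered a CpG island in intron 1 of 10, and was centred 121 bp after the TSS.

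The mitochondrial chaperonin genes Hspe1 (Hsp10) and Hspd1 (Hsp60) are transcribed in opposite directions from a shared promoter. A peak at chr1:55088058-55088481 (score 132.3, percentile 92.9) lay there in the untreated internal list. The deposited annotation assigned it to Hspe1, 121 bp after that gene's TSS, and called the same place the promoter of Hspd1. Its centre was 26.5 bp upstream of the more distal RefSeq start of Hspd1. It covered 90 of the 250 bases upstream of Hspe1 and 238 of the 250 upstream of that Hspd1 start, so both genes of the pair had a peak by position.

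Small heat shock protein genes had none: Hspb1, Hspb8 and Cryab lacked an assigned peak in all 19 libraries. Among J-domain proteins, which deliver clients to Hsp70, Dnajb1 had 1 peak in the 3′ UTR of its last exon, exon 3 of 3 (chr8:83610765-83611186, score 83.2, 2427 bp after the TSS, percentile 75.3). Dnaja1 and Dnajb6 had none assigned. By position, however, Dnajb6 had a peak centred 364.5 bp after its first start site, at chr5:29736204-29736483 (score 59.4), which the annotation gave to the non-coding gene Gm5129. Inside Dnajb6 lay 2 further peaks, with scores of 57.6 and 57.7, that were given to Gm5129 and Mir6362.

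Of the remaining co-chaperone and related genes, Bag3, Chordc1 and Ubb had distal peaks only. Bag3, a nucleotide exchange factor that links Hsp70 to autophagy, had an intergenic peak 26547 bp upstream (chr7:128496919-128497153, score 77.3). Chordc1, an Hsp90 co-chaperone, had a peak 9736 bp upstream in an L1VL1 LINE repeat (chr9:18282456-18282606, score 52.6) and another in intron 2 of 10 (chr9:18300509-18300698, score 73.9, 8336 bp after the TSS). Ubb had an intergenic CpG island peak 9085 bp after its TSS (chr11:62560697-62560935, score 76.1). The Hsp90 co-chaperones Ahsa1, Fkbp4 and Stip1, and Serpinh1, the collagen chaperone, had no assigned peak.

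Of the heat shock factors, Hsf5 and Hsf2 had near peaks and Hsf1, the main activator of the heat shock response, had none assigned. Hsf5, a factor needed for male meiosis in mice, had a peak in exon 1 of 6 (chr11:87617654-87617992, score 133.4, 659 bp after the TSS, percentile 93.1). A further Hsf5 peak covered a CpG island in intron 5 of 5 (chr11:87639154-87639463, score 102.1, 22144 bp after the TSS). The peak assigned to Hsf2 was weak, at chr10:57486857-57487006 (score 53.0, 546 bp after the TSS, percentile 19.7). A stronger one at chr10:57486255-57486465 (score 73.7) was assigned to 4930467K11Rik, although its centre lay 25 bp upstream of the Hsf2 start and it covered 130 of the 250 upstream bases printed above.

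**Figure D2:**
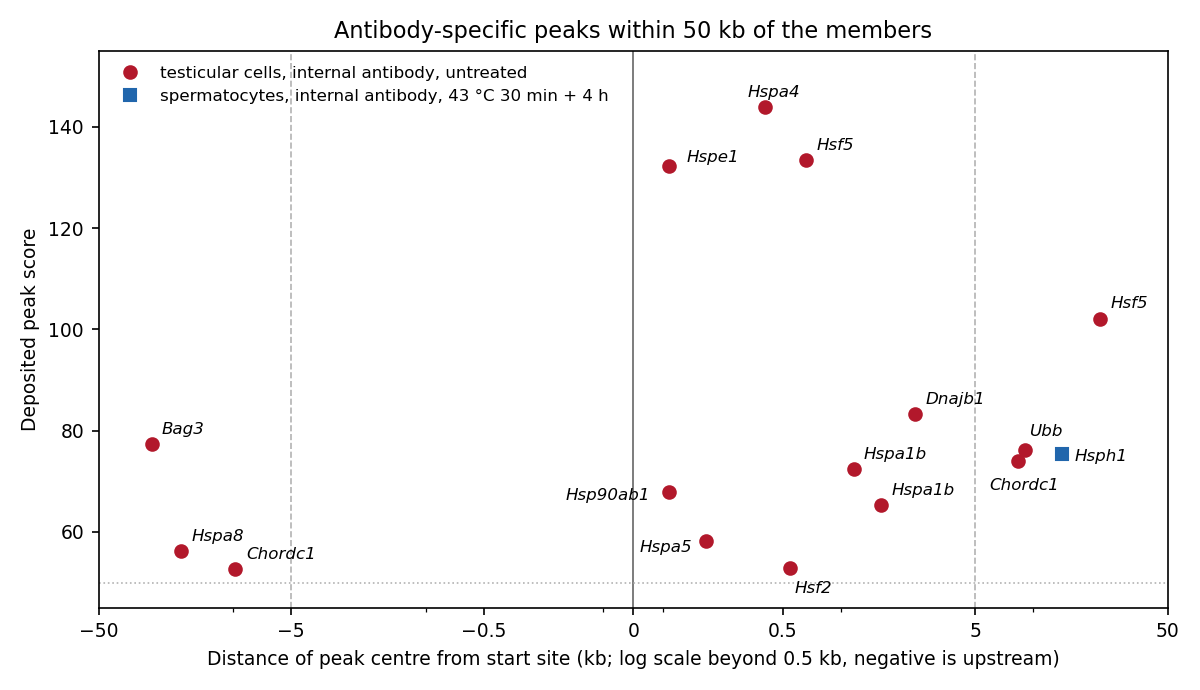
The 16 antibody-specific peaks within 50 kb, by distance of the peak centre from the start site (horizontal, kb, logarithmic beyond 0.5 kb, upstream negative) and deposited score (vertical). Dashed lines mark 5 kb and the dotted line a score of 50. The 3 highest near peaks are Hspa4, Hsf5 and Hspe1, and the centres of all near peaks lie after the start site of the assigned gene.

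Counting any antibody-specific peak centred within 5 kb of a RefSeq start site, whichever gene it was assigned to, 10 of the 29 genes had a peak in the untreated internal list, against 22.7% of all genes. The 2 genes gained were Hspd1 and Dnajb6.

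The centres of the 9 near peaks all lay after the TSS of the assigned gene (100%, interval 66.4 to 100%). The share was 74.6% over the 5122 near peaks of all genes in that list, inside that interval. By position, however, peaks were centred upstream of a start of Hspd1 and of Hsf2 and were assigned to other genes. The median score of the 9 peaks was 72.4, against 64.7 for those 5122, and their median width was 339 bp, against 219 bp. Of the 9 peaks, 6 (66.7%) were within 1 kb of the TSS, against 79.1%, and 2 covered a CpG island, against 18.6%. None was annotated to a repeat, against 7.17%. Within 50 kb, 4 of 15 peaks (26.7%) covered a CpG island, against 8.67% of 12763 peaks, and 1 (6.67%) a repeat, against 36.3%. Counts this small leave wide intervals. For the CpG island share of the 15 peaks it was 7.79 to 55.1%, which holds 8.67%. For the repeat share it was 0.169 to 31.9%, which lies below 36.3%. Of the 15 peaks 9 were near, against 5122 of the 12763, and near peaks of all genes were seldom in repeats. The part of distance in the repeat share was not tested.

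The score minimum was also raised from 50 in steps of 25, a choice made after the scores were seen. At 75, 4 of the 29 genes (13.8%, interval 3.89 to 31.7%) had a near peak, against 7.67% of all genes. At a score of at least 100, 3 of the 29 genes (10.3%, interval 2.19 to 27.4%) had a near peak, against 3.32% of all genes. They were Hspa4, Hsf5 and Hspe1. The same 3 passed a score of 125, where the share of all genes, 1.57%, lay below the interval of the members. Their scores of 132.3 to 143.9 lie just above that step, and none of the 29 reached 150, 175 or 200, against 0.823%, 0.442% and 0.257% of all genes. By distance, the members' share was 13.8% against 14.2% of all genes within 0.5 kb and was above it at each wider limit. It was 20.7% against 16.5% within 1 kb, 24.1% against 17.8% within 2 kb, 34.5% against 24.3% within 10 kb, and 37.9% against 30.5% within 20 kb. Each limit includes the narrower ones, so the same genes are counted again. The members' intervals at 5 kb (12.7 to 47.2%) and 50 kb (23.5 to 61.1%) hold the shares of all genes, 20.2% and 37.9%.

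**Figure D3:**
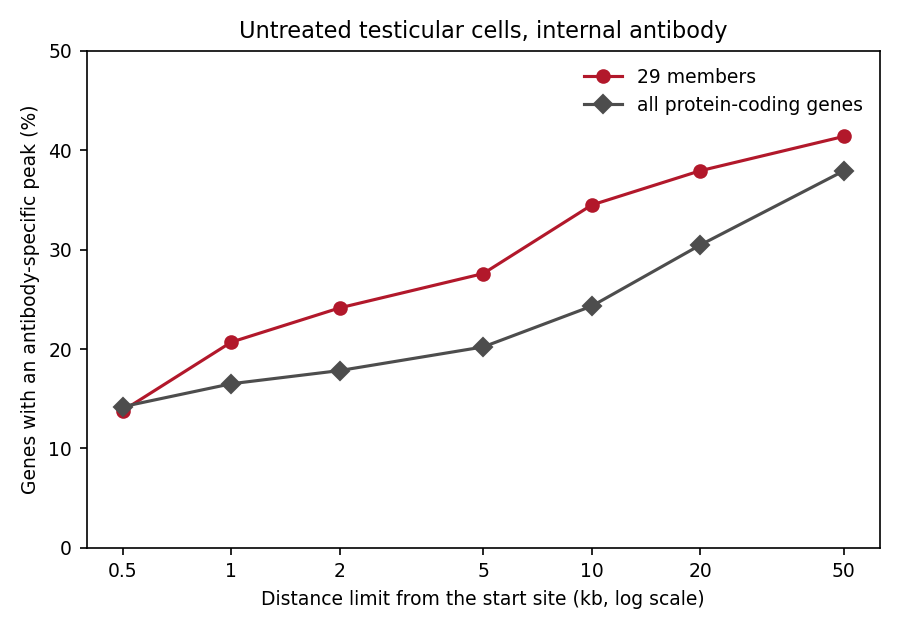
Share of genes with an antibody-specific peak (vertical, %) by distance limit from the start site (horizontal, kb, log scale) in the untreated internal list, for the 29 genes and for all protein-coding genes. The lines start at 13.8% and 14.2% within 0.5 kb and reach 41.4% and 37.9% within 50 kb.

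None of the peaks recurred. Of the 16 antibody-specific peaks, 0 shared a base with a peak of another SPEN library. For the 9 near peaks the comparison is 5.08% of the 5122 near peaks of all genes in the untreated internal list, and for its 15 peaks within 50 kb it is 10.2% of 12763. The exact interval of the 9 reaches 33.6% and that of the 15 reaches 21.8%, so both hold these shares. For the Hsph1 peak in spermatocytes no such share is given here. By gene, 0 of the 8 genes with a near peak had one again in the 8 internal-antibody libraries of heated testicular cells. Of the 4250 genes with a near peak in the untreated list, 99 (2.33%) had one there, with 83 (1.95%) at 38 °C and 43 (1.01%) at 43 °C. In the 4 spermatocyte libraries 329 (7.74%) had one again, in the 3 N-terminal libraries 33 (0.776%), and the 8 heat shock genes were not among them. Absence of a heat shock gene peak after heat was therefore shared with nearly all genes of that list.

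Untreated cells also gave no near peak with the N-terminal antibody (0 of 29, against 0.0856% of all genes) or in spermatocytes (0 of 29, against 0.0999%). The near peaks were thus found with 1 antibody in 1 of the 3 untreated libraries.

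**Figure D4:**
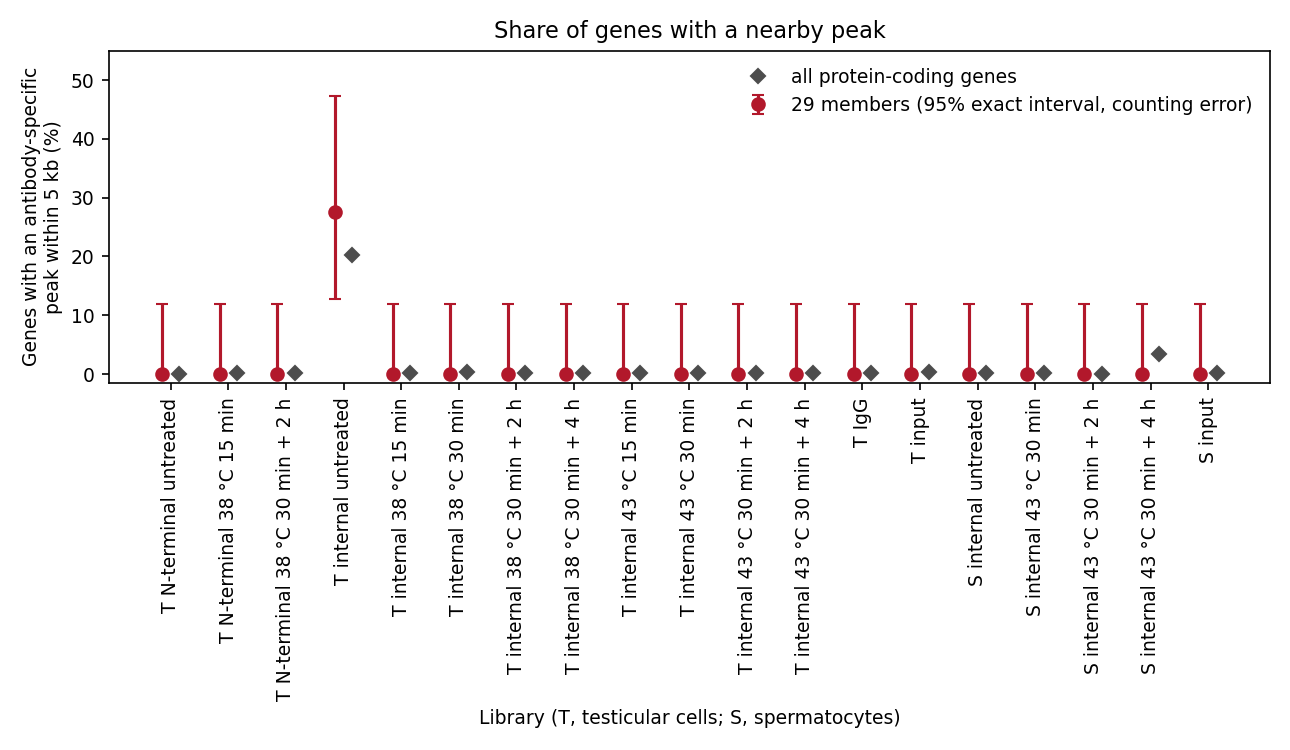
Share of genes with an antibody-specific peak within 5 kb (vertical, %) in each library (horizontal), for the 29 genes (circles, with exact 95% intervals for counting error) and all protein-coding genes (diamonds). The 29 genes are at 27.6% in the untreated internal library, beside 20.2% of all genes, and at 0 in the other 18 libraries.

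The single position near a heat shock gene that many libraries shared was at background. It lay at chr9:40762758-40763075, 38.3 kb upstream of Hspa8, in intron 2 of 6 of Clmp, and the peaks there were mostly annotated to a B1_Mus1 SINE repeat. It was called in 17 of 19 libraries, including the IgG (score 72.2), the testicular input (51.7) and the spermatocyte input (131.5).

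With the N-terminal antibody the score there was 186.9 untreated, 131.5 after 15 min of heat (38 °C) and 73.2 after recovery for 2 h. In spermatocytes it was 171.3 untreated, 127.2 after 30 min of heat (43 °C), 65.5 with 2 h and 103.7 with 4 h of recovery. In testicular cells with the internal antibody it ranged from 70.2 to 125.6 over 7 heat-shocked libraries, and no peak was called untreated or after 30 min at 38 °C. The untreated score was the highest in the N-terminal and spermatocyte series, but scores of separate lists are not levels on a common scale. Of 919 positions called in all 3 background lists, 81.3% were called in the untreated internal list and 92.9% in the list of 30 min at 38 °C. Neither list held all of them.

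**Figure D5:**
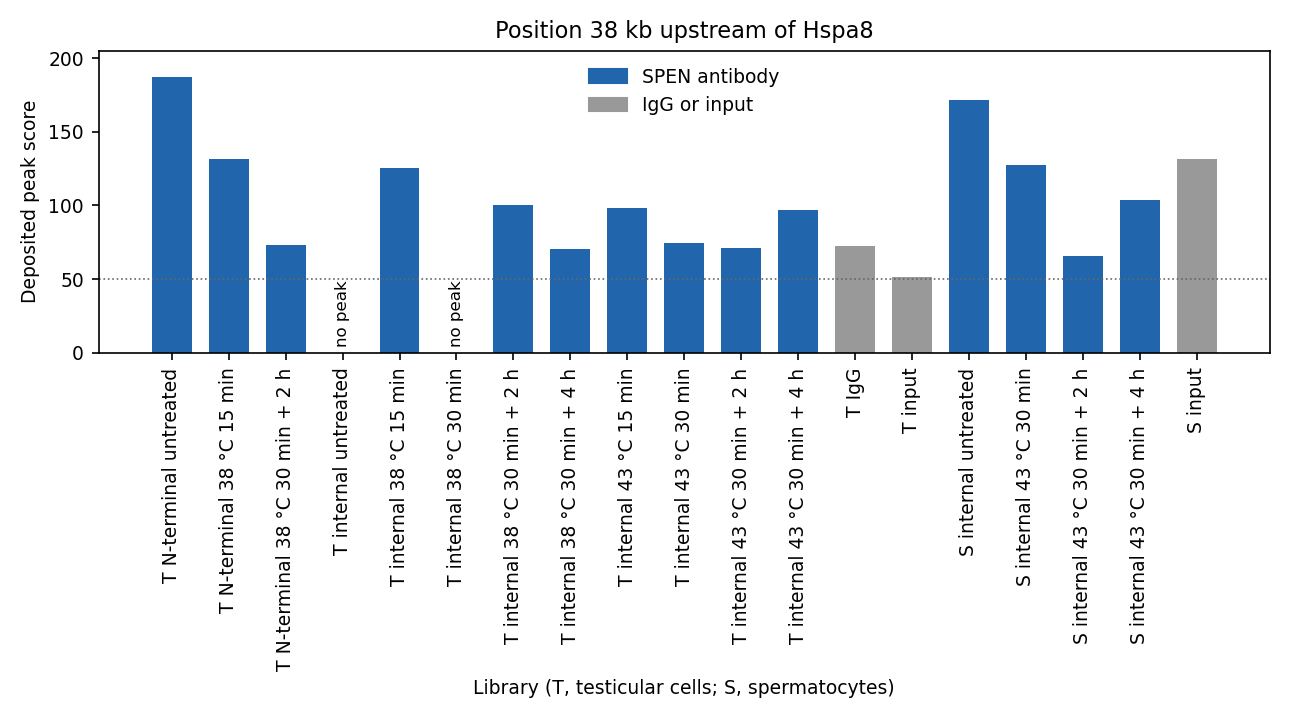
Deposited score (vertical) of the peak at the position 38 kb upstream of Hspa8 in each of the 19 libraries (horizontal), with SPEN libraries and background libraries in different colours and the score of 50 dotted. The spermatocyte input, at 131.5, is above most SPEN libraries, and 2 libraries have no peak.

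Heat shock elements were searched in the 250 bases before each RefSeq start site. The motifs were GAANNTTC and TTCNNGAA (2 blocks, each its own reverse complement) and their 3-block extensions, the first followed directly by NNGAA and the second by NNTTC (each the reverse complement of the other, so both strands were covered). Each 3-block motif contains both 2-block motifs. The table held 24 of the 29 genes in 31 windows, and Cryab, Hsf1, Hsp90aa1, Hsp90ab1 and Hspa8 had no entry. A 2-block match was found in 12 windows (38.7%), against 12.8% of all 32851 windows. A 3-block match was found in 4 windows (12.9%), against 0.466%. By gene these were 10 and 3 of the 24, against 3932 and 139 of 27025 genes in the table. Windows can overlap, so an element can be counted more than once. The 4 windows hold the Dnajb6 element, counted from both of its start sites, and the element shared by Hspe1 and Hspd1, counted for each gene. The 3-block genes were Hspd1, Hspe1 and Dnajb6, and the other genes with a match were Dnaja1, Fkbp4, Hsf5, Hspa1a, Hspa1b, Hspb1 and Hsph1.

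The element shared by Hspe1 and Hspd1 was the 1 member element inside a peak. It spans chr1:55088059-55088076, 89 to 72 bases before the Hspe1 start, and the peak begins 1 base before it. For Hspd1 it lies upstream of the start at 55087932. It lies downstream of the more distal start at 55088243, with which the peak was compared above, and the window before that start held no match. The Dnajb6 element (chr5:29735852-29735864) lay outside the peak near that gene, and the Hspa1b element (chr17:34959335-34959342) outside both exon peaks. The Hsf5 match also lay outside that gene's peaks. Hspb1, Hspa1a, Dnaja1, Fkbp4 and Hsph1 had an element and no near peak. Of all windows, 1617 (4.92%) lay under an untreated peak. These held a 2-block match in 8.78% and a 3-block match in 0.247% (4 windows), below the shares of all windows. The 4 include the Hspe1 and Hspd1 windows with the shared element. Median GC was 64.8% in windows under a peak and 52.4% in all windows, and its part in these shares was not tested. A match is a run of letters, not a measured site.

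CpG dinucleotides in the same windows went with peaks over all genes. Windows under an untreated peak had a median of 21 CpG, against 6 for all windows. Among the members in the table, the 9 with a peak by position had a median of 28 CpG (15 to 33) in their richest window, and the 15 without had 18 (9 to 34). Counted in this way per gene, the median was 21 for all members in the table and 11 for all 16853 protein-coding genes in it. Of all genes with fewer than 10 CpG, 12.5% had a peak by position, whichever gene it was assigned to. The share was 27.7% at 10 to 19, 34.6% at 20 to 29 and 42.1% at 30 or more. The members' counts were 0 of 1, 1 of 10, 5 of 7 and 3 of 6. Dnaja1, Hspa4l and Ubb had 30 or more CpG and no near peak, and Hspa1b was the gene with a peak among the 10 with 10 to 19. The part of CpG content in the members' peaks was not tested.

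For comparison, 89 other chaperone genes, listed by family, had a near peak in 24 cases (27.0%) in the untreated internal list, against the same 20.2% of all genes. With any SPEN library it was 27 (30.3%), against 22.6%. Hsbp1l1, related to a binding protein of heat shock factors, had the highest score (188.5), and its intron 1 position was called in 3 libraries, with scores of 122.5 in spermatocytes at 4 h of recovery and 80.7 after 30 min at 38 °C. Of the rest, the highest scores in the untreated list were those of Ptges3 (the Hsp90 co-chaperone p23, 130.1), Dnajc5 (112.1), the meiotic co-chaperone Fkbp6 (103.5), Dnaja2 (102.9), Hspa14 (100.8), the mitochondrial Hsp70 gene Hspa9 (97.4), the chaperonin subunit gene Cct8 (96.1) and Dnajc15 (74.95).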

How the data were processed

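Per the submitters' processing notes the authors used Bowtie2, SAMtools and HOMER on mm10 (versions: not given in the sources used here). Per the file headers, HOMER annotated peaks whose names carry MACS, and peaks were called per library; the caller's control and threshold were not given. The deposited values used were the authors' peak score, which starts at about 50 in every list, and the other deposited annotation, namely the distance to the TSS in bp, the place and the assigned gene. The 2 deposited copies of each of the 19 lists were equal in position and score.

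Groups came from the labels. Peaks shared a position at 1 bp in common. Genes were counted over 21031 protein-coding RefSeq genes of GRCm38.p6. Shares carry exact Clopper-Pearson 95% intervals and no test was run, since each group held 1 library. Start sites and 250-base upstream windows came from the RefSeq promoter table; the 5 genes without an entry kept their deposited assignment. The overlap step was checked on simulated data and found 1212 of 1212 planted overlaps among 3000 peaks. All 29 members are named. Of the 89 other chaperone genes, those with a near antibody-specific peak are named, at most 10 by score, of which 1 is not reported here, and so are genes the authors assigned to a peak within 5 kb of a member's start. Members and lists were chosen with earlier results of these data known. Python 3.11.15, pandas 2.3.3, numpy 2.4.6, scipy 1.17.1, Biopython 1.88 and matplotlib 3.10.9 were used.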

Additional observations from a re-analysis of the deposited data

How the results depend on the processing

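No paired analysis was possible because each group holds 1 library. The untreated internal list gave 8 genes within 5 kb and 12 within 50 kb. At a score of at least 100 these were 3 and 3, against 3.32% and 6.85% of all genes, and with the 1000 highest-scoring peaks 0 and 0, against 0.533% and 1.54%, fewer peaks by construction. With minimums of 75, 125, 150, 175 and 200, chosen after seeing the data, the count within 5 kb was 4, 3, 0, 0 and 0, against 7.67%, 1.57%, 0.823%, 0.442% and 0.257%. With RefSeq start sites, which let a peak count for every gene in reach, the count within 50 kb was 21, against 59.7% of all genes, and within 5 kb it was 10, against 22.7%. Spermatocytes at 4 h of recovery gave 1 gene within 50 kb (all genes 13.0%), 2 with background peaks kept (14.5%), 3 with RefSeq start sites (23.4%), 0 at a score of at least 100 (1.01%) and 0 with the 1000 highest-scoring peaks (1.42%). Over any SPEN library, leaving out the untreated internal library, a choice made after seeing the data, turned 8 into 0 (all genes 4.26%) and 13 into 1 (15.8%). The other alternatives, namely a 500 bp margin around background peaks, at least 50% of a peak under background, background of the same cell population, peak edges and a 1 kb limit, moved no count by over 1.5 times, and the near count stayed 0 in the other 14 SPEN libraries and in the 4 h spermatocyte list under each alternative run. Unknown depth limits every 0.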

Other observations

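Beyond 50 kb, outside the counts of the report, 35 peaks were assigned to Chordc1 and 2 to Hspa4. A position 787 kb upstream of Chordc1 in a B1_Mus2 SINE (chr9:17505147-17505452) was called in all 19 libraries, IgG and inputs included, with scores of 102.1 to 250.1.

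Retrocopies of heat shock genes can hold reads of their parents. Of 16 pseudogenes named after 6 of the 29 genes, 2 (12.5%, exact 95% interval 1.55 to 38.3%) held a peak, both in the untreated internal list and both antibody-specific. Of all 1677 pseudogenes named in the same way, 8.17% held an antibody-specific peak of that list, a share inside the interval. The peak in Hspe1-ps5 (chr2:72955784-72955957) scored 52.2, and that in Hsp25-ps1, a copy of Hspb1 (chr13:45078818-45079001), scored 61.5 and covered a CpG island. Hspb1 itself had no assigned peak.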
